A study of Homo sapiens with 4 samples.

Results

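Chromatin hubs were taken as 5 kb bins that anchored 5 or more called SMC1 loops in each of 4 loop lists, and the loops described here are those with at least 1 such bin as an anchor. They were chosen by the number of listed loops per bin, so that number, and their presence in several lists, is a description and not a result. The rule gave 502 hub bins among 38746 bins that anchored any loop (1.30%), and 5410 loops at them among 41846 listed loops (12.9%). Of these loops, 5318 had 1 hub anchor and 92 had a hub bin at both ends.

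The lists come from HiChIP, which ligates neighbouring pieces of fixed chromatin and then enriches the fragments held by a protein, here SMC1. The cells were GM12878, a human B lymphoblastoid line made with Epstein-Barr virus, as their labels and library names give it, while the sample titles name another lymphoblastoid line, HG00731. One culture received aphidicolin (APH) at 0.4 µM and another hydroxyurea (HU) at 0.2 mM, each for 18 h. The controls received the solvent alone, which was dimethyl sulfoxide (DMSO) for aphidicolin and water (H2O) for hydroxyurea. Each of the 4 groups is 1 library of this single line, so no test could be made, and the difference between the DMSO and H2O libraries, neither of which had a drug, is given for pooled values and named loci as a measure of how far libraries differ.

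SMC1 is a core subunit of cohesin, the ring complex that is thought to enlarge chromatin loops by extrusion until it meets CTCF bound in a facing orientation. A site that holds cohesin at one end while the other end is reeled in contacts a row of positions on one side, which is seen in contact maps as a stripe or a fan of loops. Aphidicolin inhibits the replicative DNA polymerases, and hydroxyurea inhibits ribonucleotide reductase, the enzyme that supplies deoxynucleotides. Both slow replication forks in dividing cells.

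Of the hub bins, 103 of 502 held an annotated transcription start (20.5%, 95% exact interval 17.1% to 24.3%), against 14.4% of all anchor bins and 12.6% of the bins at the far end of hub loops. The promoters in hub bins were therefore read for the letters CNAGGNGGC on the gene strand or GCCNCCTNG on the other, which are a part of the core bound by CTCF. The sequences below are from RefSeq (GRCh38.p14), run 5′ to 3′ along the gene and end before the start, and the capitals mark the match. They are the promoters with a match at 5 hub bins with many listed loops: PPARD, a nuclear receptor for fatty acids (chr6:35342416-35342504, plus strand), ISLR2, a membrane protein with leucine-rich repeats (chr15:74129592-74129654, plus strand), RFFL, an E3 ubiquitin ligase (chr17:35089421-35089476, minus strand), ABTB2 (chr11:34358082-34358170, minus strand) and ARHGAP22, a GTPase-activating protein (chr10:48656389-48656477, minus strand).

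PPARD: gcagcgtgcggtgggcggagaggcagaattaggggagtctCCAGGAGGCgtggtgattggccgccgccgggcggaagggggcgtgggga
ISLR2: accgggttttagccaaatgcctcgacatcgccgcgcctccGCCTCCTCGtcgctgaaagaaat
RFFL: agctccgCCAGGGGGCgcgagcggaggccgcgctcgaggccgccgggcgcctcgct
ABTB2: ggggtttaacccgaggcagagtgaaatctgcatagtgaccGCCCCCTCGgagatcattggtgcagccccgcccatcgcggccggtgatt
ARHGAP22: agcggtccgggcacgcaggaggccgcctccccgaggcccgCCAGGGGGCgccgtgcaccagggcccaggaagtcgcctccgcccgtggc

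The PPARD hub bin had 13 listed loops in DMSO against 17 in APH, and 14 in H2O against 14 in HU, and the ISLR2 hub bin had 7, 16, 10 and 11 in the same order. The first base of the match lay 102 bases before the start in PPARD, 120 in ABTB2, 172 in ARHGAP22 and 243 in RFFL, on the gene strand except in ABTB2, and 23 bases before it on the opposite strand in ISLR2. Over 250 bases before the start, 21 of 141 promoters in hub bins held a match (14.9%, interval 9.46% to 21.9%). The share was 9.62% of 904 promoters in partner bins, 12.3% of 8144 in any anchor bin and 9.18% of all 35116 promoters in the table. The interval for the hub bins holds the share of any anchor bin and leaves out the share of all promoters by a small margin. It treats promoters as independent, but the 141 belong to 122 genes. AP4B1 and DCLRE1B, on opposite strands, even share the same matching stretch. The small margin is therefore not read as a difference. A match to 9 letters is a description of the sequence, and no binding was measured.

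The 100 bases directly before the start of MARCKS and CAPN1 are also shown. Contact counts were divided by the library's total over loops in all 4 lists. The MARCKS hub bin was then lower, and the CAPN1 hub bin higher, in each drug library than in its vehicle. The intervals of counting error excluded equality in each of these comparisons. The PPARD hub bin, whose promoter holds a match, was also lower, with log2 ratios of -0.03 for each drug. Its intervals did not exclude equality. Whether a match goes with the direction of a difference was not tested. MARCKS, a membrane-bound substrate of protein kinase C, lies at chr6:113857245-113857344 and CAPN1, the large subunit of a calpain protease, at chr11:65181273-65181372, both on the plus strand. Neither held a match within 250 bases before the printed start, and both stretches are rich in G and C, at 76% and 75%. CAPN1 has 3 listed starts in its hub bin, of which 1 is printed.

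MARCKS: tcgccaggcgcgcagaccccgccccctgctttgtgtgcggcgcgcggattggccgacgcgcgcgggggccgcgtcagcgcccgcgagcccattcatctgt
CAPN1: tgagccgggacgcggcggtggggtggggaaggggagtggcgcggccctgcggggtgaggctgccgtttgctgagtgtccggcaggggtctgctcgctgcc

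Hub loops took a share of 18.6% of the DMSO list (3287 of 17660 loops), 14.6% of the APH list (4011 of 27395), 16.0% of the H2O list (3591 of 22446) and 16.2% of the HU list (3465 of 21448). The share was highest in the shortest list and lowest in the longest. The lists hold only called loops and the total read depth of the libraries is unknown, and the part of list length in this order was not tested. A hub bin had a median of 6 listed loops in DMSO and 7 in each of the other lists, with a maximum of 16 in DMSO against 22 in APH, and 21 in H2O against 15 in HU. The DMSO list set the threshold most often: among the 250 bins whose lowest list had exactly 5 loops, DMSO was at that lowest value in 154, and among the 525 bins just outside, with a lowest of 4, in 319. More loops were listed in APH than in DMSO at 323 hub bins and fewer at 68, with 1.22 times as many hub loops in a list 1.55 times as long. Between the vehicles 244 hub bins had more listed loops in H2O and 113 fewer, with 1.09 times as many hub loops in a list 1.27 times as long. At 169 hub bins HU had more listed loops than H2O and at 211 fewer.

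**Figure D1:**
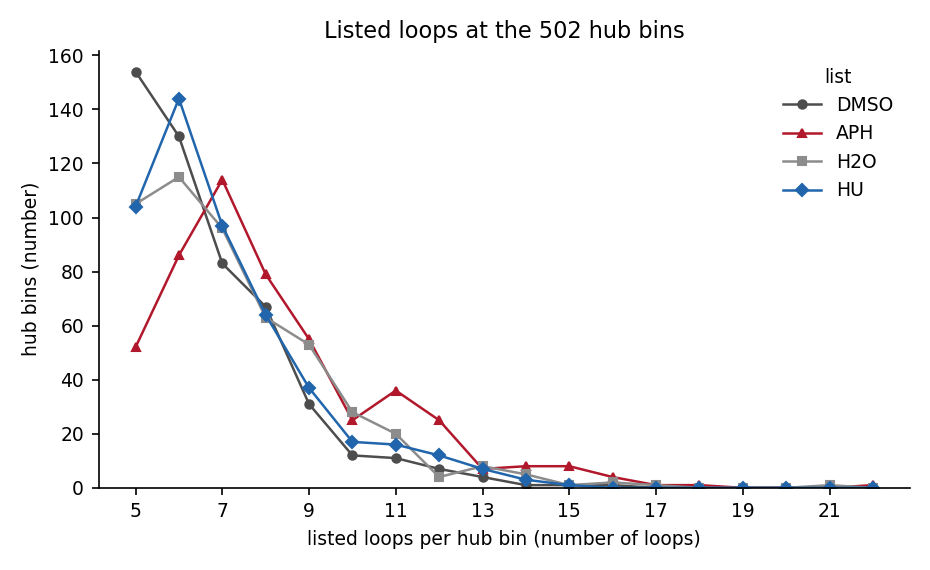
Number of hub bins (y axis) by the number of listed loops per hub bin (x axis) in each of the 4 lists, over the same 502 bins. All lists start at 5 by the rule; the DMSO line is highest at 5 loops (154 bins) and the APH line peaks at 7.

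Of the hub loops, 2193 of 5410 were in all 4 lists (40.5%), 749 in 3, 867 in 2 and 1601 in 1 (29.6%). Among loops with no hub anchor, 20.1% were in all 4 lists and 48.2% in a single one. This contrast is partly fixed by the rule, which asks for loops in every list. Hub loops had a median contact count of 23 in DMSO against 25 in APH, and 24 in H2O against 23 in HU, against 19, 20, 19 and 19 for the other loops. Divided by the expected count of each loop, they were not higher throughout. The medians for hub and other loops were 5.43 and 5.73 in DMSO, 4.97 and 4.99 in APH, 5.31 and 5.20 in H2O, and 4.96 and 5.27 in HU. Hub loops were longer at the median, spanning 120 kb in DMSO and H2O and 110 kb in APH and HU, against 105 kb and 90 kb for the others in the same pairs of libraries. Loops under 100 kb made up 38.6% of hub loops in DMSO against 41.4% in APH, and 37.2% in H2O against 43.8% in HU, each below the share among other loops, which ran from 46.8% to 53.1%. The longest loops were likewise fewer: spans of 500 kb or more were 1.36% to 1.81% of hub loops and 2.17% to 3.26% of the others.

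Over the 4 lists together, the partners of a hub often lay in touching bins. A hub bin had between 5 and 27 different partner bins over the 4 lists, with a median of 10. Of neighbouring partners of the same hub in the lists together, 64.3% lay in touching bins. This share was not taken for single lists or for other bins. Touching partners were joined to runs, so that neighbouring bins counted once. In a single list the median hub had 6 or 7 listed loops and 4 runs. Just 5 hub bins had a single run in every list, and 43 still had 5 or more separate runs in every list. All partners lay on one side at 339 hub bins (67.5%), at higher coordinates for 179 and at lower ones for 160, and 416 (82.9%) had at least 80% of partners on one side in every list. One-sidedness was as frequent in other bins with at least 7 partners, at 67.7% of 1092, so it did not set hub bins apart. Where a hub bin held starts on 1 strand and most partners on one side, the partners lay downstream of the start at 39 and upstream at 37 of 76.

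Hub bins also contacted each other. The 92 loops between 2 hub bins involved 139 of the 502 hub bins and had a median span of 152.5 kb, and 71 of them were in all 4 lists. In 52 of the 92 both hubs had most of their partners, the other hub included, on the side of the other. No expected number was set beside this count.

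Hub bins overlapped the body of a protein-coding gene less often than anchors in general, at 262 of 502 (52.2%, interval 47.7% to 56.6%) against 63.1% of all anchor bins and 64.0% of partner bins. The 240 hub bins off genes lay a median of 12.8 kb from the nearest one. By chromosome, hub bins were densest on chromosome 19, with 2.37 per 100 anchor bins, then on chromosome 1 with 1.84 (78 hub bins) and chromosome 6 with 1.72, and sparsest on chromosome X with 0.40 and chromosome 7 with 0.52.

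Among genes of B cell identity, 1 of 30 had a hub bin on its body and 10 of 30 (33.3%) had an anchor of a hub loop, against 1.47% and 5.95% of all 19974 protein-coding genes. These 10 were FCMR, the Fc receptor for IgM, which had the hub bin, MS4A1 (CD20), CD79A of the B cell receptor, BLK, a B cell kinase, CD22, the coactivator POU2AF1, the transcription factors IKZF1, IRF8 and BACH2, and CIITA, which drives MHC class II genes. Of 15 T cell markers none had a hub bin and 5 (33.3%) had an anchor of a hub loop (among them CD4, CD2, CD5 and TCF7), the same share as in the B cell list. Anchors of any listed loop lay on 63.3% of the B cell genes in DMSO against 83.3% in APH, and on 76.7% in H2O against 66.7% in HU. For the T cell genes these shares were 40%, 60%, 46.7% and 33.3%, and for all protein-coding genes 32.5%, 40.3%, 35.9% and 36.9%. Gene length was not matched between lists. Of 25 genes responsive to NF-kB and viral latency, 4 had a hub bin (16%), of 30 replication and checkpoint genes 1, of 20 p53 and damage targets 1, and of 15 cohesin genes, 15 myeloid and erythroid markers and 24 ribosomal protein genes none. Anchors of hub loops lay on 5 of the 25, 3 of the 30, 2 of the 20, 2 of the 15, 1 of the 15 and 2 of the 24 genes of these lists.

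The FCMR hub on chromosome 1 (206910001 to 206915000) had 9 listed loops in DMSO against 9 in APH, and 8 in H2O against 8 in HU. Over its 7 loops in all 4 lists it had 210 counts in DMSO against 265 in APH, and 250 in H2O against 200 in HU. Here and throughout, differences are log2 ratios of such counts after each library was scaled by its total over the 9529 loops in all 4 lists, with a 95% exact interval of counting error alone. A ratio with APH is that of APH over DMSO, a ratio with HU is that of HU over H2O, and the ratio between vehicles is that of H2O over DMSO. Runs of 4 counts without names follow the order DMSO, APH, H2O, HU. The FCMR hub stood at 0.01 with APH (-0.26 to 0.28), -0.31 with HU (-0.58 to -0.03) and 0.13 between vehicles (-0.14 to 0.41). Its HU value was the only one of these with an interval that left out 0.

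The hubs on genes of the NF-kB and latency list were those of TNFAIP3, the deubiquitinase that restrains NF-kB, BCL2, the inhibitor of apoptosis, CD86, a costimulatory ligand, and CCND2, a D-type cyclin. The TNFAIP3 gene had 281 counts of shared hub loops in DMSO against 328 in APH, and 276 in H2O against 292 in HU, with ratios of -0.10 with APH, 0.10 with HU and -0.14 between vehicles. A second hub bin lay 156 kb from TNFAIP3, in the bin from 137705001 to 137710000 of chromosome 6, and all of its 19 partners were at higher coordinates, towards that gene. CD86 had 128, 170, 140 and 129 counts, BCL2 had 54, 57, 68 and 59, and CCND2 had 71, 66, 62 and 52. All intervals of the drug ratios at these 4 genes held 0.

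At PCNA, the sliding clamp of the replication fork, the hub bin held the start of PCNA and that of CDS2, and its 10 partners were all at higher coordinates. PCNA had 130 counts in DMSO against 171 in APH, and 166 in H2O against 147 in HU, and both drug intervals held 0 (0.07, -0.27 to 0.41, and -0.16, -0.49 to 0.17), as did that between vehicles (0.24, -0.10 to 0.58). GADD45B, a stress-induced p53 and NF-kB target, had 160, 193, 205 and 158 counts. Its ratio was -0.06 with APH (-0.37 to 0.25) and -0.36 with HU (-0.67 to -0.05). CDKN1A, which encodes the cell cycle inhibitor p21, had no hub bin of its own, and 2 shared loops tied it to the hub locus beside SRSF3. They held 165 counts in DMSO against 191 in APH, and 197 in H2O against 126 in HU, a ratio of -0.12 with APH (-0.42 to 0.19) and -0.63 with HU (-0.96 to -0.30). At CDKN1A and GADD45B the H2O library also stood above DMSO, by 0.14 (-0.17 to 0.45) and 0.24 (-0.06 to 0.55), with intervals that held 0.

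Touching hub bins, or those 1 bin apart, were joined, which gave 489 hub loci, 13 of them of 2 bins. The locus with most listed loops lay on chromosome 20 (43745001 to 43755000), 18.0 kb from GTSF1L, and all its 32 partners were at higher coordinates, among them in TOX2, a transcription factor of the HMG-box family. It had 19 listed loops in DMSO against 20 in APH, and 20 in H2O against 17 in HU. Its shared loops had 329 counts in DMSO against 341 in APH, and 359 in H2O against 269 in HU, giving -0.28 with APH (-0.50 to -0.05), -0.40 with HU (-0.63 to -0.17) and 0.01 between vehicles (-0.21 to 0.23). After scaling, both drug libraries stood below both vehicle libraries there.

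The next by listed loops were the locus beside the splicing factor gene SRSF3 on chromosome 6 with partners in CDKN1A, CPNE5 and RAB44 (71 listed loops over the 4 lists), and the locus beside CSK, a kinase that restrains SRC-family kinases, on chromosome 15 (also 71). The SRSF3 locus sent all of its 26 partners to higher coordinates, whereas the CSK locus had 15 at higher and 11 at lower ones and reached 10 genes, among them CSK, ULK3 and SCAMP2. Also among the first 10 were a bin at LINC01461 on chromosome 1 (65) and a locus near PECAM1 and MILR1 on chromosome 17 (62). So were a bin beyond FYN (62), PPARD (58), a locus near EPS8L3 (57) and a bin near PSEN2 with partners in ITPKB (57). The EPS8L3 locus had partners at AHCYL1, GNAI3 and GSTM4 in all 4 lists, and its loop to CSF1 was listed in APH alone. The PPARD hub had 467 counts in DMSO against 575 in APH, and 533 in H2O against 516 in HU over its shared loops and stood at -0.03 with APH, -0.03 with HU and 0.07 between vehicles, and at -0.10 for APH against H2O. Of these 10 loci, those at GTSF1L in both drugs and those at SRSF3 and FYN in HU had drug intervals below 0, and none had one above 0. At SRSF3, HU against DMSO was -0.19, with an interval that held 0 (-0.40 to 0.03). The CSK locus differed between vehicles, at -0.29 with an interval that left out 0 (-0.47 to -0.10). Its drug ratios were smaller, at -0.11 with APH and -0.03 with HU.

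Pooled over all 2193 hub loops in the 4 lists, contacts were slightly lower with each drug and longer loops more so. Hub loops held 83470 counts in DMSO against 102018 in APH, and 89945 in H2O against 84944 in HU. The pooled ratio was -0.04 with APH (-0.05 to -0.03), -0.07 with HU (-0.08 to -0.05) and -0.01 between vehicles (-0.02 to 0.00), against 0.01, 0.02 and 0.00 for loops with no hub anchor. With the totals of all listed loops as the scale, every ratio moves by -0.38 with APH, 0.05 with HU and -0.24 between vehicles, so directions here are relative to the loops in all 4 lists, and on the other scale every APH ratio smaller than that shift lies below 0. The hub rule used the same lists, and when hub bins were instead taken from the 2 lists outside each comparison the pooled ratios were -0.03, -0.07 and -0.01. The 71 loops between hub bins stood at -0.05 with APH (-0.11 to 0.01) and -0.09 with HU (-0.15 to -0.03).

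Under 100 kb hub loops were higher in both drug libraries, at 0.05 with APH (0.03 to 0.07) and 0.04 with HU (0.02 to 0.06), although on the scale of all listed loops the APH value lies below 0. From 100 to 250 kb they were lower, at -0.09 (-0.11 to -0.07) and -0.15 (-0.17 to -0.13). From 250 to 500 kb the values were -0.20 (-0.25 to -0.15) and -0.16 (-0.21 to -0.11), and at 500 kb or more, over 35 loops, -0.36 (-0.48 to -0.23) and -0.24 (-0.37 to -0.11). Between vehicles the first 3 classes lay between -0.02 and -0.01, and the longest stood at -0.12 (-0.25 to 0.00). Loops with no hub anchor followed the same order, from 0.09 under 100 kb to -0.21 at 500 kb or more in APH and from 0.09 to -0.15 in HU. Where hub loops stood apart most clearly was the class of 100 to 250 kb in HU, -0.15 against -0.01 (-0.03 to 0.00). In APH the same class gave -0.09 against -0.02 (-0.03 to -0.01). Under 100 kb hub loops also lay below the others, at 0.05 against 0.09 in APH and 0.04 against 0.09 in HU. In either class the intervals of hub and other loops did not overlap with either drug, and in the longer classes they overlapped. With the H2O library in place of DMSO the longest class gave -0.23 for both hub and other loops in APH.

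**Figure D2:**
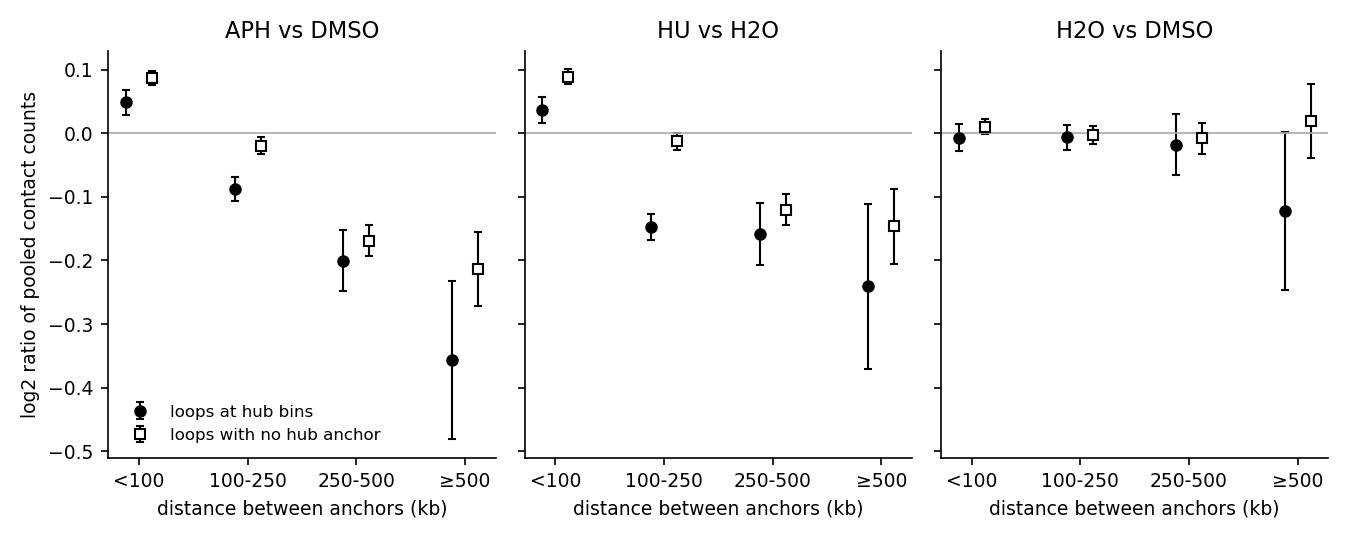
Log2 ratio of pooled contact counts (y axis) by the distance between anchors (x axis, kb) for loops at hub bins (filled circles) and loops with no hub anchor (open squares), all in 4 lists; bars are 95% exact intervals of counting error. Relative to the loops in all 4 lists, both drug panels fall from above 0 under 100 kb (below 0 for APH on the scale of all listed loops) to below 0 beyond 250 kb, and the panel of the vehicles stays near 0 except for hub loops of 500 kb or more, at -0.12.

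The span pattern was also present within single hubs, where near and far loops share one anchor. At 387 hub bins with at least 4 shared loops, the loops were split at the hub's median span into near ones (median 90 kb) and far ones (median 152.5 kb). Far loops had a lower ratio than near loops at 263 of them (68.0%) with APH and at 246 (63.6%) with HU, against 196 (50.6%) between vehicles. The median far-minus-near difference was -0.14, -0.12 and -0.01. Pooled, the near loops stood at 0.02 in APH and 0.01 in HU and the far loops at -0.10 (-0.12 to -0.08) and -0.13 (-0.15 to -0.10). Far loops were lower than near ones in both drug comparisons at 177 hub bins, in APH alone at 86, in HU alone at 69 and in neither at 55. In 194 other bins with as many shared loops the share was 57.7% with APH, 63.9% with HU and 47.4% between vehicles. The pattern was thus not particular to hub bins in HU. For APH, the difference between hub and other bins depended on the vehicle: APH against H2O gave 63.6% at hub bins and 60.8% at the other bins. With loops of at least 24 counts in every list only, the APH share at hub bins was 57.8%, and with at least 6 shared loops per hub the HU share was 69.2%.

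**Figure D3:**
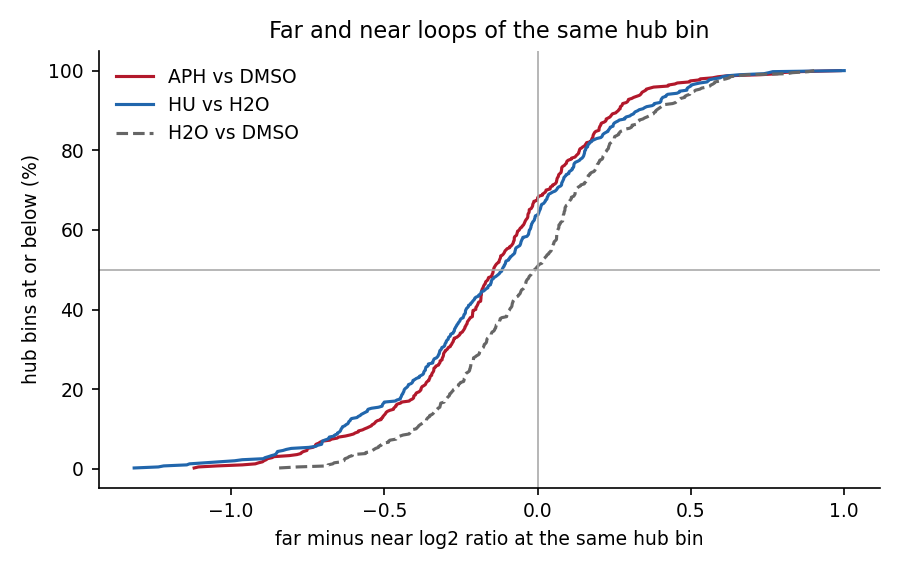
Share of hub bins (y axis, %) at or below a given far-minus-near difference of log2 ratios (x axis) for 387 hub bins, with APH over DMSO (red), HU over H2O (blue) and H2O over DMSO (dashed grey). The drug lines cross 50% at -0.14 and -0.12 and the vehicle line near 0, at -0.01.

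Hub loci split in the same way by the span of their loops. Of 176 loci with a median shared span under 100 kb, 40.9% were below 0 with APH and 48.9% with HU. Of 172 loci at 150 kb or more, 77.3% and 73.8% were below 0, with medians of -0.12 and -0.13. Between vehicles the shares were 47.7% and 51.2%. Over all 489 hub loci, 59.9% were below 0 in APH, 64.2% in HU and 48.3% between vehicles. All anchor bins were joined in the same way as hub bins, to joined anchor loci. Of those with at least 200 counts, hub loci included, 49.8%, 53.9% and 50.4% were below 0. No such minimum was set for the 489 hub loci, so these shares are not like for like.

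Single hub loops past 1.5-fold after scaling were few. With APH 97 of 2193 were higher (4.42%) and 176 lower (8.03%), where 6.59% and 7.87% of all 9529 shared loops passed in these directions. With HU 105 were higher (4.79%) and 228 lower (10.4%), beside 8.42% and 8.61% of all shared loops. Between vehicles 94 were higher (4.29%) and 111 lower (5.06%), beside 5.50% and 5.34%. Lower hub loops in APH were thus close to the share over all loops, and higher hub loops were below it in each comparison. Hub loops also had larger counts than the others. Among loops of at least 24 counts in every list, 7.33% of 1160 hub loops were lower with HU and 3.53% higher, against 5.36% and 5.70% of all such loops.

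Summed over a whole locus, hardly any hub passed 1.5-fold. With APH 0 of 489 were higher and 2 lower, where 4.85% and 5.00% of 8745 joined anchor loci passed. The 2 were at C4orf36 on chromosome 4, with counts of 110 in DMSO and 79 in APH (-0.81, -1.24 to -0.38), and at PITPNC1, a phosphatidylinositol transfer protein, with 103 and 84 (-0.62, -1.06 to -0.19). At PITPNC1 the HU library had 117 counts and H2O 95, the other way round. With HU 3 were higher and 10 lower, beside 7.31% and 5.18%, and between vehicles none passed, beside 3.32% and 3.29%. The 3 higher with HU were at SPR, near P2RY2 and near LHX2, the last with 22 counts in H2O and 33 in HU and an interval that held 0. With at least 200 counts in both libraries together, HU vs H2O had 2 higher and 6 lower of 411 hub loci, and 41 higher and 31 lower of 1940 joined loci. At that minimum APH vs DMSO had 0 either way of 420 hub loci, and 25 higher (1.23%) and 3 lower (0.15%) of 2034 joined loci, and the vehicles had 0 of 413 hub and 0 of 1820 joined loci.

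The hub at SPR, which encodes sepiapterin reductase of tetrahydrobiopterin synthesis, had the highest HU ratio among hub loci with at least 200 counts and stood high with both drugs. Its bin on chromosome 2 (72890001 to 72895000) had 6 listed loops in DMSO against 11 in APH, and 6 in H2O against 11 in HU, all to higher coordinates. Over 6 shared loops it had 156 counts in DMSO against 273 in APH, and 146 in H2O against 257 in HU. The ratio was 0.48 with APH (0.19 to 0.77), 0.83 with HU (0.53 to 1.13) and -0.21 between vehicles (-0.55 to 0.12). The largest differences in counts were at 2 loops to bins at and beside the homeobox gene EMX1: the one of 45 kb had 38, 98, 33 and 91 counts in DMSO, APH, H2O and HU, and the one of 40 kb had 26, 56, 20 and 57. The loop of 270 kb from the same bin had 14, 18, 17 and 13 counts. Between 20 and 35 kb, 4 further loops were listed in at least 1 drug library and in neither vehicle.

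The hub 0.245 kb from FGFBP2 on chromosome 4 (15955001 to 15960000), with partners in CD38, an ectoenzyme of activated B cells, and its neighbour BST1, had 88 counts in DMSO against 148 in APH, and 120 in H2O against 172 in HU. It stood at 0.42 with APH (0.03 to 0.82) and 0.54 with HU (0.19 to 0.88), but H2O itself stood at 0.33 over DMSO (-0.08 to 0.74). There APH against H2O was 0.09 (-0.27 to 0.45) and HU against DMSO 0.87 (0.49 to 1.25). The CAPN1 hub, whose promoter is printed above, had 91, 152, 94 and 124 counts and stood at 0.41 with APH (0.03 to 0.80), 0.42 with HU (0.02 to 0.82) and -0.07 between vehicles. HU against DMSO was 0.35 there, with an interval that held 0 (-0.06 to 0.75). Its partners lay 30 to 70 kb away at lower coordinates, among them FAU, a ribosomal protein fusion gene, and SYVN1, an E3 ligase of the endoplasmic reticulum.

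Other hubs high in APH were one near NR2E3 on chromosome 15 (0.49, 0.11 to 0.86) and one near IL17A on chromosome 6 (0.47, 0.21 to 0.73). On the scale of all listed loops both of these intervals hold 0. The IL17A hub had partners in IL17F and MCM3, a subunit of the replicative helicase. The IL17A hub had 195 counts in DMSO against 338 in APH, and 219 in H2O against 242 in HU, so that APH stood above the other 3 after scaling. The NR2E3 hub had 95, 167, 134 and 128, and its APH value was 0.11 against H2O (-0.23 to 0.45). High in HU were a hub near P2RY2 and P2RY6, purinergic receptors, with 203, 293, 207 and 315 counts (0.62, 0.36 to 0.88), a hub at NPAS4 with 168, 244, 158 and 233 (0.58, 0.28 to 0.88), and a hub 1.80 kb from the cytokine gene IL3 with 86, 135, 87 and 122 (0.50, 0.10 to 0.92). The IL3 interval against DMSO held 0 (0.40, -0.01 to 0.82). Between vehicles the ratio was 0.38 at NR2E3, 0.05 at IL17A, -0.09 at P2RY2, -0.21 at NPAS4 and -0.10 at IL3, with intervals that held 0.

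The lowest APH ratio among hub loci with at least 200 counts was at a hub 11.03 kb from TNFSF9 on chromosome 19, with partners in CD70 and TNFSF14, ligands of the tumour necrosis factor family that act between lymphocytes. It had 180 counts in DMSO against 157 in APH, and 184 in H2O against 159 in HU, a ratio of -0.53 with APH (-0.84 to -0.21) and -0.19 with HU (-0.51 to 0.12). A hub 68.2 kb from MAP3K8, a kinase of the NF-kB and ERK pathways, had 209, 183, 230 and 182 counts, with -0.52 (-0.81 to -0.23) and -0.32 (-0.61 to -0.03). A hub near SIPA1L1 with partners as far as 650 kb had 140, 123, 131 and 106 counts, -0.51 with APH (-0.88 to -0.15) and -0.30 against H2O (-0.67 to 0.06). The ratio between vehicles was -0.09 at TNFSF9, 0.02 at MAP3K8 and -0.21 at SIPA1L1, with intervals that held 0.

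The STIM1 hub lay inside the gene of the calcium sensor of the endoplasmic reticulum on chromosome 11 (4070001 to 4075000), and all 8 partners were 145 to 250 kb away at lower coordinates, at the far end of STIM1, at RHOG, a small GTPase, and at PGAP2. Its 4 shared loops had 178 counts in DMSO against 158 in APH, and 184 in H2O against 122 in HU. The ratios were -0.50 with APH (-0.82 to -0.18), -0.58 with HU (-0.92 to -0.24) and -0.07 between vehicles (-0.37 to 0.24). After scaling, both drug libraries were below both vehicles. The hub near CDKAL1 with partners in E2F3, a transcription factor of S phase genes, had 201, 181, 178 and 130 counts and stood at -0.48 with APH (-0.78 to -0.18) and -0.44 with HU (-0.77 to -0.10). APH against H2O was -0.19 there (-0.49 to 0.12), and the ratio between vehicles was -0.29 (-0.59 to 0.01).

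Among the 5 lowest HU ratios of hub loci with at least 200 counts was that of the hub beyond FYN, an SRC-family kinase. The FYN hub on chromosome 6 (111995001 to 112000000) had 12 listed loops in DMSO against 14 in APH, and 21 in H2O against 15 in HU, and 26 of its 27 partners were at lower coordinates, 24 of them in FYN. Its 7 shared loops had 197, 227, 253 and 153 counts and stood at -0.12 with APH (-0.41 to 0.16), -0.71 with HU (-1.01 to -0.41) and 0.24 between vehicles (-0.03 to 0.52). The HU ratio against DMSO was -0.47 (-0.78 to -0.15), and over the loops in both the HU and H2O lists, more than those in all 4, HU against H2O was -0.44 (-0.67 to -0.22). Its farther loops, of 285 and 290 kb, had 35 and 20 counts in HU against 64 and 47 in H2O, whereas the only loop to higher coordinates, of 45 kb, was listed in H2O with 31 and in HU with 42. GNAI3, a G protein subunit, and a bin near DAD1 on chromosome 14 were also low in HU, at -0.63 and -0.61, but against DMSO their intervals held 0 (-0.31, -0.71 to 0.08, and -0.33, -0.71 to 0.05), and between vehicles they stood at 0.32 and 0.28.

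**Figure D4:**
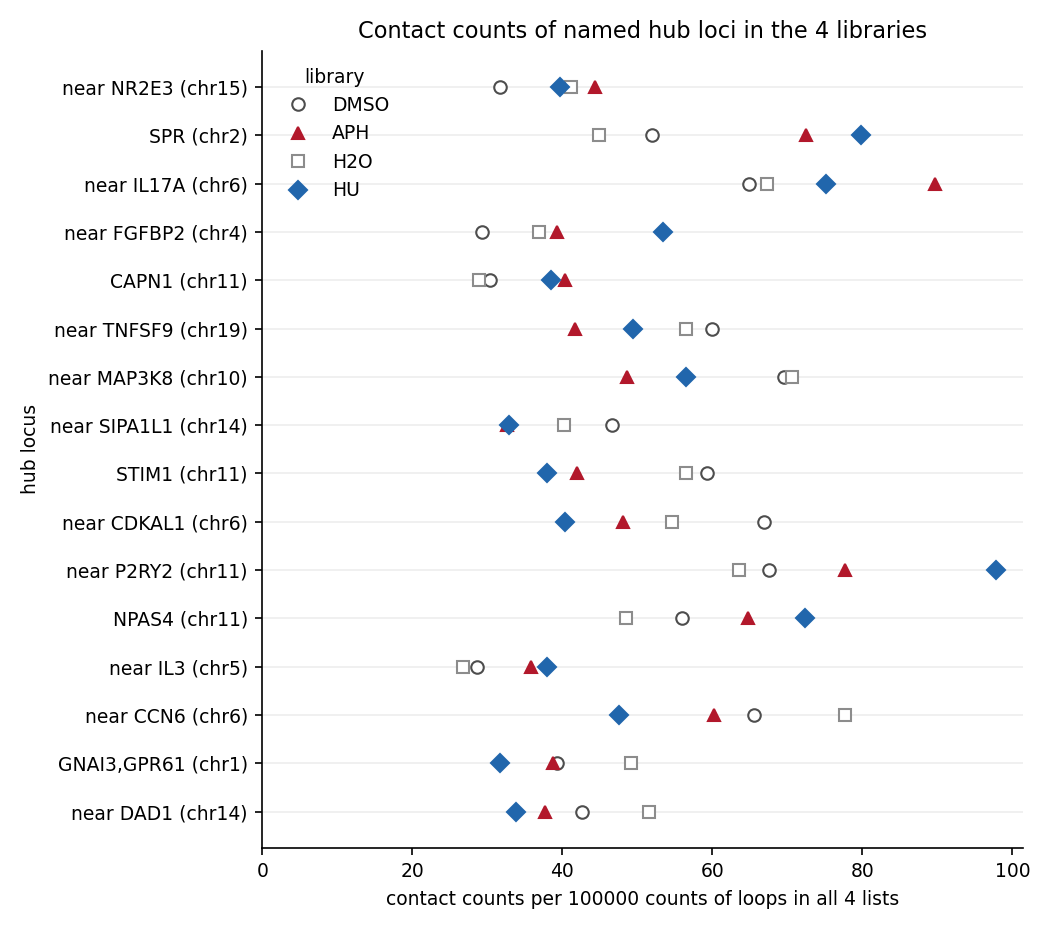
Contact counts per 100000 counts of loops in all 4 lists (x axis) in each library (DMSO open circle, APH triangle, H2O open square, HU diamond) for hub loci named by their drug ratios (y axis). At SPR both drug libraries lie right of both vehicles, at STIM1 both lie left, and at the locus near CCN6, which is the hub beyond FYN, HU is lowest and H2O highest.

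**Figure D5:**
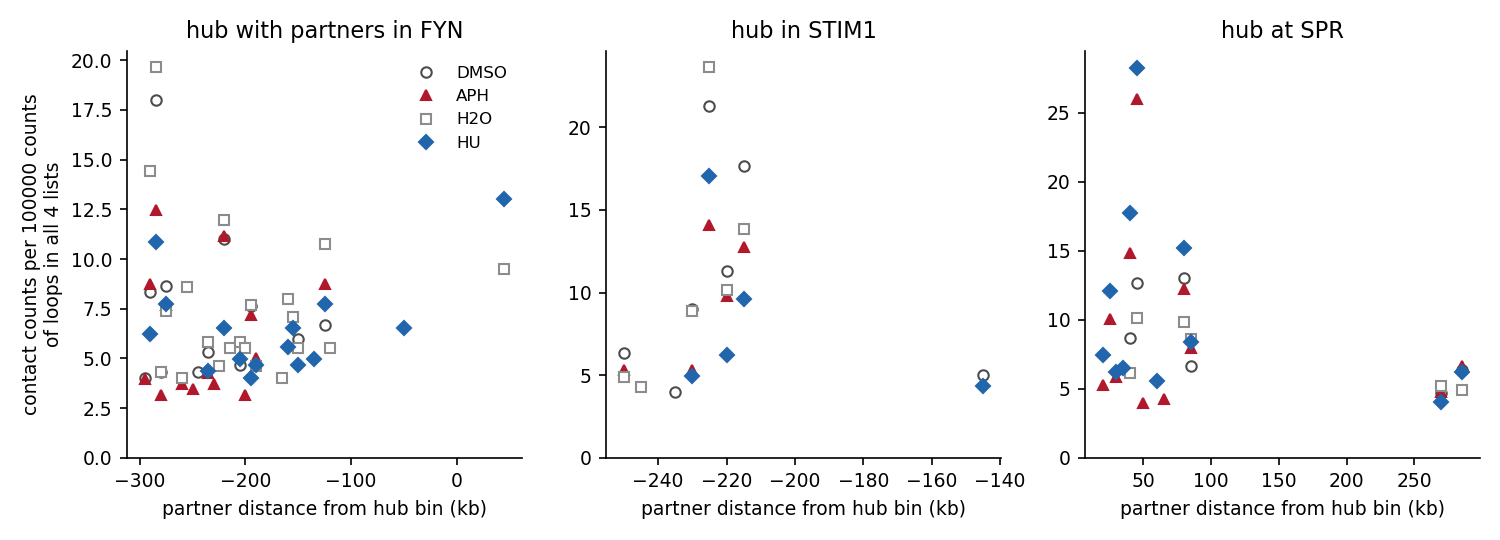
Contact counts per 100000 counts of loops in all 4 lists (y axis) by the distance of the partner from the hub bin (x axis, kb; negative means lower coordinates) for 3 hubs; a library without a point did not list the loop. At SPR the loops of 40 and 45 kb are highest in HU and APH, and at STIM1 the loops of 215 to 230 kb are lower in HU than in H2O.

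With counting error alone, 44 of 489 hub loci had an interval below 0 with APH (9.0%) and 15 above (3.07%), where 4.03% and 4.25% of the 8745 joined anchor loci did. With HU 72 lay below 0 (14.7%) and 22 above (4.50%), beside 5.13% and 6.34%, and between vehicles 11 (2.25%) and 6 (1.23%), beside 1.66% and 1.53%. Hub loci hold more counts than most joined loci, which makes their intervals narrower. Among loci with at least 200 counts the shares with APH were 8.81% below and 3.57% above 0 at hubs against 6.88% and 7.52% of joined loci, and with HU 15.6% and 5.35% against 11.9% and 10.3%. The comparisons of the drugs with their own vehicles have no library in common: 19 hub loci were below 0 in both (3.89%), 5 above 0 in both (1.02%) and 0 opposite. Of joined loci 82 were below 0 in both (0.938%), 121 above (1.38%) and 7 opposite. With at least 200 counts in each comparison, 4.18% of 407 hub loci were below 0 in both and 1.23% above, against 2.61% and 2.88% of 1877 joined loci. The 19 low loci had a median shared span of 150 kb (range 47.5 to 245) and the 5 high loci 62.5 kb (25 to 112.5), beside 117.5 kb over all hub loci. These loci were picked by their values and are given as a description.

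Of the loci low in both, the PRKCB hub, in the gene of the protein kinase C isoform of the B cell receptor pathway, had 186 counts in DMSO against 184 in APH, and 225 in H2O against 164 in HU (-0.34 and -0.44). The MARCKS hub, whose promoter is printed above, sent all 17 partners to lower coordinates, upstream of the gene, and had 341, 368, 363 and 268 counts over 10 shared loops (-0.22, -0.43 to -0.0011, and -0.42, -0.65 to -0.19). A hub beside SH2B3, an adaptor that restrains cytokine receptors, had 295, 295, 304 and 231 counts (-0.33 and -0.38). The hub 92.4 kb beyond IRF8, a transcription factor of B and myeloid cells, had 231, 241, 247 and 183 (-0.27, -0.53 to -6.0e-05, and -0.42, -0.70 to -0.14). Its APH interval thus barely left out 0. Over all 3 shared hub loops anchored on IRF8 itself, however, the ratios were 0.08 and 0.26 with intervals that held 0.

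A second hub near MAP3K8, 140 kb from the first and joined to it by a loop that counts for both, had 212, 208, 235 and 161 counts (-0.36 and -0.53). The CAVIN1 hub with partners in STAT3, STAT5A and STAT5B, transcription factors of cytokine signalling, had 272, 285, 269 and 211 (-0.26 and -0.33). ARHGAP18, C4orf36, the PCDHG cluster and the bins near CARMIL2, CHRNA9, LGALSL and SLC1A4 were low in both as well, with APH ratios from -0.81 to -0.24. The ratio between vehicles at the PRKCB, MARCKS, SH2B3, IRF8, MAP3K8 and CAVIN1 hubs lay between -0.13 and 0.16, with intervals that held 0.

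High in both, beside SPR, FGFBP2 and CAPN1, were RAPGEF3, the exchange factor Epac1 that responds to cyclic AMP, with 294, 433, 319 and 372 counts over 6 shared loops (0.23, 0.01 to 0.45, and 0.24, 0.02 to 0.46), and COXFA4L3 with 332, 550, 403 and 468 (0.40, 0.20 to 0.60, and 0.23, 0.04 to 0.43). Between vehicles they stood at 0.00 and 0.16. Both had a median shared span of 25 kb. The scale of all listed loops moves each APH ratio by -0.38. On it the APH ratio of RAPGEF3 lies below 0, and the APH intervals of SPR, FGFBP2, CAPN1 and COXFA4L3 hold 0. The RAPGEF3 hub reached HDAC7, a class II histone deacetylase of lymphocytes, and VDR, the vitamin D receptor.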

How the data were processed

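Each library has 1 deposited loop list from the authors, without a header, so columns were read from their values. The deposited counts are whole contact counts, not normalized, and none is under 12 for a pair of bins. A further deposited signal column is taken as the expected count. It was used in 1 alternative and for the medians of counts over expected counts. A deposited column taken as an adjusted p-value was not used in a result. Per the submitters' processing notes, bcl2fastq 2.17, MACS3 3.0.1 and hg38 were used. For the aligner and the loop caller, the name is not given in the sources used here.

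Counts of loops in all 4 lists (totals 300320 in DMSO, 376948 in APH, 325634 in H2O, 322048 in HU) were scaled by these totals, with no pseudocount. Ratios have 95% exact conditional binomial intervals, and shares Clopper-Pearson intervals. They cover counting error only, since each group is 1 library. PCR reads carry no molecular identifiers and so may repeat a molecule, which would make these intervals too narrow. An unlisted loop is not a 0. Genes and promoters came from RefSeq (GRCh38.p14). Python 3.11.15, numpy 2.4.6, pandas 2.3.3, scipy 1.17.1 and matplotlib 3.10.9 were used. The hub rule was checked on a small made-up list and the ratios of single loops on simulated counts. The other steps were not simulated.

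Named loci were the 10 with most listed loops, and the 5 highest and 5 lowest per drug among loci with at least 200 counts in the comparison, an interval that leaves out a ratio of 1 and a size above that of H2O vs DMSO, the 5 loops with most counts, and B cell genes with a hub bin. Some places that the rule names and the 5 loops are not reported here. The loci low or high in both drugs and genes of other lists were chosen after their values were seen. The hub loops and gene lists were chosen with earlier results of these data known.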

Additional observations from a re-analysis of the deposited data

How the results depend on the processing

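With 1 library per group no spread between cultures was measured, depth beyond the lists is unknown, and loops under 12 counts are not listed. No paired analysis was possible because each group has 1 library. The pooled ratios with APH and HU stayed below 0 under the alternatives run for them, and the ratio between vehicles, near 0, was 0.00504 after division by expected counts. Some alternatives were chosen after seeing the data. These were outside lists, separate runs, at least 6 loops, 200 counts per locus, and 24 counts or the other vehicle for near and far. For named loci they were the other vehicle and shared loops.

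A minimum of 4, 6, 8 or 10 loops per bin gave 1027, 252, 74 and 22 hub bins with 9176, 3162, 1155 and 411 loops. Loops of at least 24 counts gave 64 bins and 560 loops, thinning to the lowest list total 303 and 3079, and counting each bin with its 2 neighbours 2910 and 13174. With at least 24 counts, hub loops were 24.7% of the DMSO, 20.0% of the APH, 21.4% of the H2O and 21.5% of the HU list, with median spans of 105, 95, 105 and 95 kb. With a minimum of 8 they were 4.09%, 3.13%, 3.49% and 3.50%, with 130, 120, 130 and 115 kb.

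The pooled APH ratio was -0.42 when scaled by all listed loops, -0.053 when scaled by loops with no hub anchor, -0.052 relative to other loops of the same span, -0.053 with a minimum of 8 and -0.10 at hubs with 5 separate runs. The HU ratio was -0.019, -0.091, -0.089, -0.089 and -0.14 in the same order, and H2O vs DMSO was -0.25 when scaled by all listed loops. Hub loops past 1.5-fold with that scaling were 8 higher and 729 lower in APH and 22 and 341 in H2O vs DMSO. With at least 24 counts they were 27 and 52 in APH, 41 and 85 in HU, and 22 and 32 in H2O vs DMSO. Past 2-fold they were 6 and 14, 12 and 26, and 10 and 6.

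Hub loci past 1.5-fold and lower numbered 106 in APH, 6 in HU and 8 in H2O vs DMSO when scaled by all listed loops. In HU they were 4 over loops in both lists, 6 against DMSO and 6 with at least 200 counts. In APH none were lower with at least 200 counts, and 1 was higher against H2O. The share of hub bins with far loops below near loops was 57.8% in APH with at least 24 counts and 69.2% in HU with at least 6 loops. The other 56 values of main results stayed within 1.5 times of a count or within the counting interval of a ratio, share or median. Of 20 values for named loci against the other vehicle, 7 had an interval that held 0, and the 20 over loops in both lists kept their side. The cause of these differences was not tested, beyond the fewer loops that stricter minimums leave.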
